A study of Mus musculus with 20 samples.

Results

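Sensory neurons stimulated with short bursts of action potentials for 5 hr were compared with neurons that were not stimulated. The comparison holds 8 of the 20 samples of the series, 4 labelled 18/1 5 hr and 4 labelled not stimulated, and the other 12 samples entered the fit so that all conditions shared the same estimate of the spread. Samples were assigned by condition, because the labels do not settle which colour of an array held which 18/1 5 hr replicate. All cultures were of neurons from NIH Swiss mouse embryos at E13.5, with markers of other cells measured as well (below), grown for weeks in chambers whose side compartments hold the cell bodies and whose axons cross under a barrier. Dividing non-neuronal cells were suppressed with fluorodeoxyuridine. In the 18/1 pattern the axons fired 18 action potentials once every 1 min, and in the 90/5 pattern 90 action potentials once every 5 min, each for 2 hr or 5 hr. Per the study's methods, nerve growth factor and serum were withdrawn the night before in all cultures, and unstimulated cultures were handled in the same way but not connected to the stimulator. The methods describe the samples of a condition as biological replicas, each from pooled cultures.

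RNA was measured on 10 two-colour Agilent arrays, glass slides with short DNA probes, with 2 arrays of 2 samples (Cy3 and Cy5) per condition. Arrays 1 and 2 (unstimulated) lay on slide 1 with the 18/1 2 hr arrays, and arrays 5 and 6 (18/1 5 hr) lay on slide 2 with arrays 7 and 8 (90/5 2 hr). Slide and stimulation cannot be told apart in the comparison of 18/1 5 hr with unstimulated neurons. Within-slide values exist for 18/1 5 hr against 90/5 2 hr. The ratio of signal to background of the median spot ranged from 2.27 to 2.59 over the unstimulated samples and from 5.55 to 10.4 over the 18/1 5 hr samples, which also carried 5319 to 14642 spots marked as non-uniform, against 6 to 36. Between 1299 and 2800 spots were saturated in each 18/1 5 hr sample and 0 to 403 in each unstimulated sample. Spots of the same probe differed by an SD of 0.424 to 0.698 log2 units in the 18/1 5 hr samples and 0.193 to 0.253 in the unstimulated samples. All levels below are normalized log2 signals, in which a difference of 1 is a 2-fold change. Levels of different genes rest on different probes and are not compared. The number of arrays limits the precision of every value.

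The cells were labelled as DRG neurons, whereas the growth protocol names spinal cords as their source. Of 36 markers of sensory neurons, 33 were well above background in all 4 unstimulated samples and 28 in all 4 samples at 18/1 5 hr. The summed linear signal of the 23 of them that were tested ranged from 697000 to 740000 without stimulation and from 574000 to 821000 at 18/1 5 hr. Of 16 markers of spinal cord neurons and macroglia, 6 and 8 were well above background. Only 1 of these, Slc18a3, was tested, with linear signals of 240 to 319 and 109 to 144. No sum over the spinal cord markers is therefore given to set beside the sensory neuron markers. Peripherin (Prph) and the neurofilament subunits Nefl, Nefm and Nefh were saturated in all 4 samples at 18/1 5 hr, so no fold is given for them. The sensory neuron transcription factor Isl1 (log2 fold change 0.79, limma, adjusted p = 0.104), the neuronal splicing factor Rbfox3 (0.1, adjusted p = 0.801) and the nociceptor sodium channel Scn11a (0.25, adjusted p = 0.592) were not called. Spots of the GABA synthesis enzymes Gad1 and Gad2 and of the glial gene Olig1, typical of the central nervous system, were under 2 times their background in all 4 unstimulated samples and at least 2 times in all 4 samples at 18/1 5 hr, as were spots of 6186 genes in all (described last). The only spinal cord marker tested, the vesicular acetylcholine transporter Slc18a3 of motor neurons, was called lower (-1.12, adjusted p = 0.00161). Markers of the other cells a ganglion holds were also present. Their calls are set beside all genes tested, of which 15.0% were called higher and 29.5% lower. Sums cover tested members only, and sums of different lists are not compared. Schwann and satellite glia markers summed to between 68600 and 75400 without stimulation and between 32000 and 85000 at 18/1 5 hr. Their 4 tested members were not called and had a median log2 fold change of -0.11. This median was -0.83, with 3 called lower, when arrays were only centred on their medians. It was -0.59 without the trend on probe composition. Fibroblast markers summed to between 69700 and 138000 and between 135000 and 168000, with 1 of 11 tested called higher (Col1a1) and 1 lower (Prrx1). Macrophage markers summed to between 20200 and 30000 and between 11000 and 29300, with 1 of 4 called higher (Ctss) and 1 lower (C1qb). With centring on medians, 1 fibroblast marker was called higher and 3 lower, and 0 macrophage markers higher and 2 lower. Endothelial markers summed to between 22800 and 31100 and between 27700 and 39000, with 1 of 2 called lower (Pecam1). The part of these cells in the results was not tested, and fewer cells of a type cannot be told apart from less RNA per cell.

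When a neuron fires, calcium enters through voltage-gated channels and activates kinases and phosphatases that carry the signal to the nucleus. Transcription factors that are already present, such as CREB and SRF, then switch on immediate early genes, which need no new protein synthesis. Many of these encode transcription factors themselves (Fos, Egr and Nr4a proteins, Npas4), and they are followed by effector genes such as the neurotrophin Bdnf, the G protein regulator Rgs2 and phosphatases that dampen the kinases. CREB binds the cyclic AMP response element (CRE), TGACGTCA, or its core, TGACG.

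To show what such elements look like in the genes that this comparison turns on, stretches of 30 bases from their promoters are printed 5′ to 3′ on the gene's own strand, with a CRE or its core on either strand in capitals. They come from the RefSeq promoter table (GRCm38.p6), which gives 250 bases before to 50 after each start of transcription. The stretch of Nr4a1 lies at chr15:101266796-101266825 (plus strand), that of Npas4 at chr19:4990131-4990160 (minus), that of Fos at chr12:85473814-85473843 (plus), that of Rgs2 at chr1:144004197-144004226 (minus), that of Egr4 at chr6:85513679-85513708 (minus), that of Bdnf at chr2:109692391-109692420 (plus) and that of Maff at chr15:79347481-79347510 (plus).
Nr4a1: cctctccatgCGTCAcggagcgcttaagat
Npas4: tcccgttcgaCGTCAcgggaTGACGtcgga
Fos: ttccgcccagTGACGtaggaagtccatcca
Rgs2: ggggcgtggcTGACGcctccaggtcccgcc
Egr4: tggtcatttaCGTCAcggcgccagggccgg
Bdnf: tgacagctcaCGTCAaggcagcgtggagcc
Maff: gctggggcggTGACGTCActgcatgactgg

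These 7 genes are shown because their promoters hold a match, and 1 stretch is printed for each. Bdnf has 7 promoters in the table, with 1 match to the core over all of them, and Maff has 3 promoters. Socs3, Dusp14, Fosl2 and Gadd45b, described below with higher levels at 18/1 5 hr, hold neither TGACGTCA nor TGACG in this window. Of all 32851 promoters in the table, 20.8% hold the core TGACG and 1.79% hold TGACGTCA on either strand, and counted by gene over the 6325 tested genes that have a promoter in the table, 36.6% and 3.97% do, so a match is a description and not a binding site. The table holds a promoter for only 59.6% of the genes that rose alike, 59.9% of those that fell alike and 61.1% of all genes tested, and a comparison of shares between these sets is void at that coverage.

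Several immediate early transcription factors stood far above the unstimulated samples, while others were not called or fell. Nr4a1, an orphan nuclear receptor, had levels of 7.99, 8.48, 8.02 and 8.8 in unstimulated replicates 1 to 4, and of 12.64 and 12.76 on array 5 and 12.75 and 12.9 on array 6 (each Cy3, then Cy5) at 18/1 5 hr. The lowest stimulated sample was above the highest unstimulated sample by more than the whole spread of either group. Its log2 fold change was 4.44 ± 0.37 (SE, n = 4), which is 21.7-fold (limma, adjusted p = 1.65e-07), and its probe lies at chr15:101105071-101105130 (mm9). It was also 4.54 higher after 2 hr of the same pattern (slide 1), 4.76 after 2 hr of 90/5 (slide 2) and 5.51 after 5 hr of 90/5 (slide 3), differences that all share the unstimulated samples.

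Fos and Npas4 were marked well above background in all 4 unstimulated samples, but their spots did not reach 2 times the local background in each of them, so they did not pass the spot filter in all 20 samples. They passed when the filter asked only for all 4 samples of 18/1 5 hr or of unstimulated neurons, that is, through the samples in which they were high. That fit held 16609 genes, of which 14.1% were called higher and 25.7% lower. Since passing through the high group fixes the direction, the values of these genes are a description, with no test. Npas4, a transcription factor induced by calcium entry, had levels of 7.12, 7.72, 7.32 and 7.45 without stimulation and of 11.94, 12.15, 12.47 and 12.25 at 18/1 5 hr, with means of 7.4 ± 0.25 and 12.2 ± 0.22 (SD, n = 4). Fos, a subunit of the transcription factor AP-1, lay between 7.14 and 7.25 without stimulation and at 10.47, 10.67, 11.48 and 11.7 at 18/1 5 hr, with means of 7.2 ± 0.05 and 11.08 ± 0.6 (SD, n = 4). On slide 1, where 18/1 2 hr and unstimulated samples lie side by side, the differences were 4.63 for Npas4 and 3.37 for Fos.

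Other regulators of this class, described from the fit with the wider filter and without a test, behaved in several ways. Egr4, a zinc finger factor, lay between 7.03 and 7.8 without stimulation and between 10.25 and 10.71 at 18/1 5 hr, and stood 1.47 above unstimulated neurons at 18/1 2 hr. The bZIP repressor Nfil3 lay between 10.42 and 11.48 and between 12.81 and 13.88, with a difference of 0.67 at 18/1 2 hr. Fosl2, another AP-1 subunit, lay between 9.26 and 9.99 and between 10.93 and 11.53. In these 3 genes the groups did not overlap, which is a description only, since the wider filter can be passed through the high group. The share of all genes in that fit without overlap is not given. Fosb differed from unstimulated neurons by 1.35 on array 5 and 0.89 on array 6. Nr4a2, a relative of Nr4a1, lay between 7.08 and 7.2 without stimulation and at 8.72, 9.05, 9.86 and 9.73 at 18/1 5 hr, and it differed by 1.23 between the arrays of 90/5 2 hr, with array 7 the higher.

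**Figure D1:**
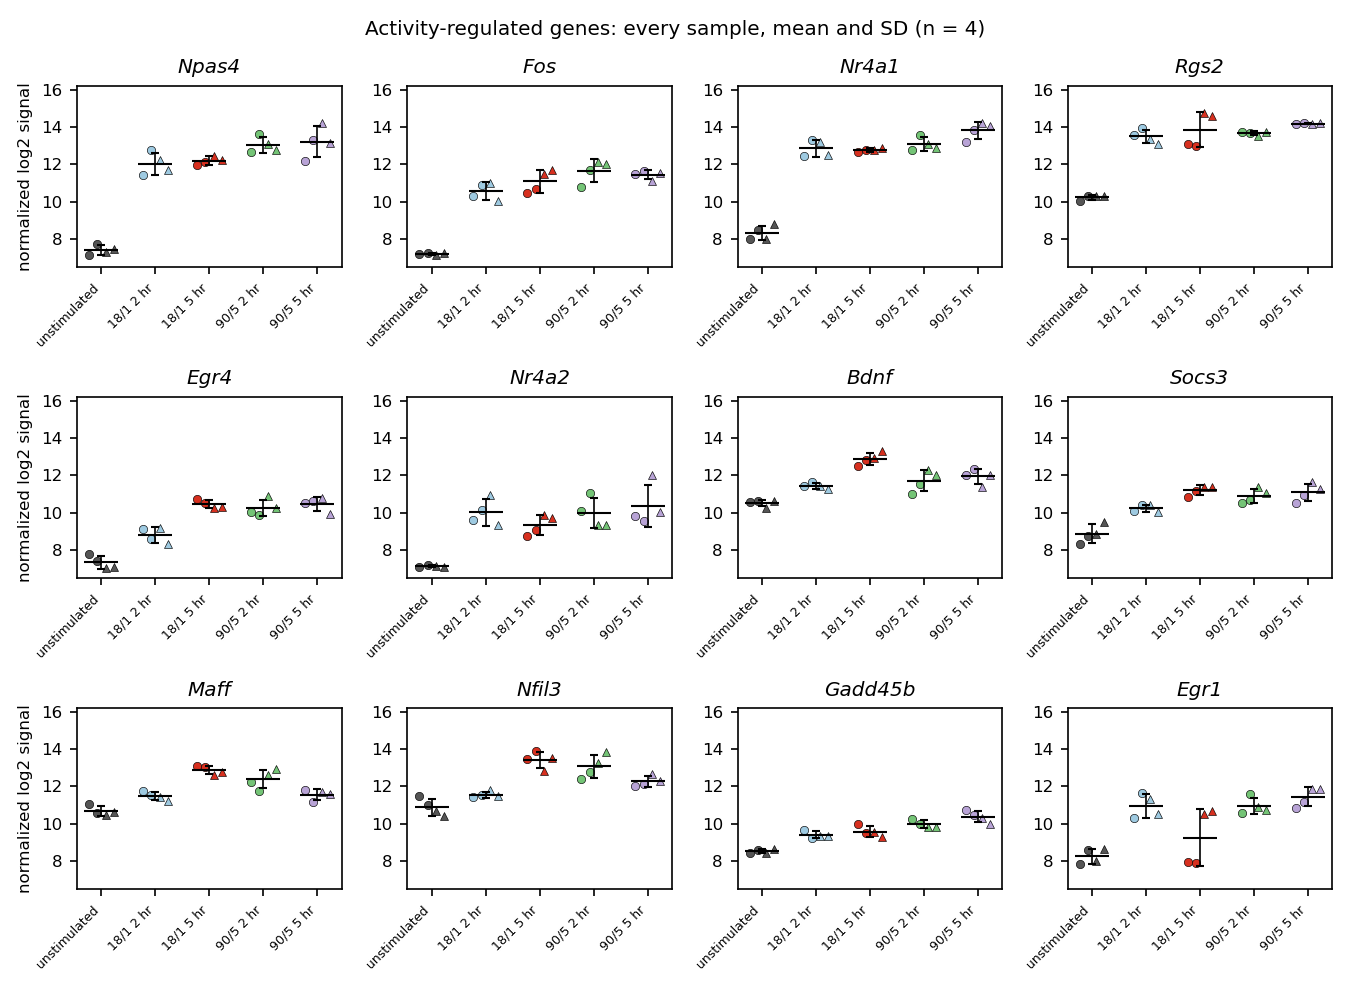
Normalized log2 signal of 12 activity-regulated genes in every sample of the 5 conditions; circles are the samples of the first array of a condition and triangles those of its second, and bars give the mean and SD (n = 4). Nr4a1 lies between 12.64 and 12.9 in all 4 samples at 18/1 5 hr, while Egr1 lies at 7.95 and 7.91 on array 5 and at 10.49 and 10.67 on array 6.

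Egr1, the best known member of the Egr family, split by array. Its levels were 7.84, 8.56, 7.97 and 8.63 without stimulation, 7.95 and 7.91 on array 5, and 10.49 and 10.67 on array 6. Array 5 thus stood at the unstimulated level and array 6 well above it, and the log2 fold change of 1 ± 0.59 was not called (limma, adjusted p = 0.17). Without array 6 the value was -0.32 (adjusted p = 0.573), and without array 5 it was 2.33 (adjusted p = 0.000797). The probe was well above background and unsaturated in all 8 samples, and no other Egr1 probe passed. Egr1 was 2.71 above unstimulated neurons at 18/1 2 hr. Rgs2, a regulator that speeds the turning off of G protein signals, split in the same direction without returning to the unstimulated level. It had levels of 10.04, 10.29, 10.28 and 10.28 without stimulation, 13.11 and 12.97 on array 5 and 14.75 and 14.57 on array 6, with 1 sample saturated (log2 fold change 3.63 ± 0.34, limma, adjusted p = 3.35e-07).

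Effector genes that respond to firing were called in both directions. Bdnf had levels of 10.56, 10.6, 10.27 and 10.63 without stimulation and of 12.52, 12.82, 12.92 and 13.3 at 18/1 5 hr. All stimulated samples were above all unstimulated samples, with a log2 fold change of 2.37 ± 0.3 (5.18-fold; limma, adjusted p = 7.57e-06; probe at chr2:109566961-109567020, mm9). Within slide 2, Bdnf was 1.19 ± 0.3 higher at 18/1 5 hr than at 90/5 2 hr (limma, adjusted p = 0.016), where pattern and time differ together. The same 18/1 5 hr samples place Bdnf among the largest rises below, so this value is a description. Socs3, which blocks cytokine receptors from signalling through STAT proteins, moved from 8.29, 8.77, 8.87 and 9.52 to 10.83, 11.18, 11.4 and 11.37 (2.33 ± 0.34, adjusted p = 3.16e-05). Dusp14, a phosphatase of MAP kinases, rose by 1.96 ± 0.3 (adjusted p = 4.52e-05), with 2.3 on array 5 and 1.62 on array 6. Gadd45b, a growth arrest gene, was called with 1.05 ± 0.25 (adjusted p = 0.00188) and 0.89 on array 6, but was 0.41 and not called under median centring (adjusted p = 0.295). Inhba, the activin subunit, fell by 1.68 ± 0.39 (adjusted p = 0.00166), but its probe was well above background in only 2 of the 4 samples at 18/1 5 hr, so the size of the fall is uncertain.

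Of the immediate early transcription factors, 17 of 33 on the arrays were tested, 7 were called higher, against 15.0% of all genes tested, and 3 lower, against 29.5%. Maff, a small bZIP factor, rose by 2.21 ± 0.3 (adjusted p = 1.33e-05), with levels of 10.46 to 11.07 without stimulation and 12.63 to 13.09 at 18/1 5 hr. Cebpb rose by 1.88 (adjusted p = 0.000108, 1 sample saturated) and Cebpd by 1.23 (adjusted p = 0.0264), the latter with a difference of 1.39 between the 90/5 2 hr arrays. Atf3, a factor known for its induction by nerve injury, fell by 1.41 ± 0.39 (adjusted p = 0.006), from 12.52 to 14.14 without stimulation to 11.76 to 12.05. The median log2 fold change of the list was 0.46, beside -0.23 over all genes, but it was -0.29, with 3 called higher and 6 lower, when arrays were only centred on their medians, and 0.05 without the trend on probe composition. Of the activity-regulated effectors, 22 of 38 were tested, 7 were called higher and 2 lower, with a median of 0.4 that turned to -0.42 under median centring, with 4 called higher and 5 lower, and was 0.04 without the trend on probe composition. Members of both lists were written down with earlier results of these data known.

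Across the 10355 genes tested, a gene was taken as changed alike when it was called, each of arrays 5 and 6 lay at least 1 log2 unit from the unstimulated mean on the same side, and no 18/1 5 hr sample overlapped an unstimulated one. This held for 664 genes that were higher and 1344 that were lower. Genes that also differed by at least 1 log2 unit between arrays 7 and 8, which held the same condition (90/5 2 hr), with no overlap between the samples of these arrays, were set apart. Of all genes tested, 12.4% differed in this way, but 258 of the genes higher alike (38.9%) and 556 of those lower alike (41.4%) did. That left 406 genes higher alike (3.92% of all tested) and 788 lower alike (7.61%). These counts were 67 and 1917 when arrays were only centred on their medians, and 237 and 551 without the trend on probe composition. At the limits, Ubqln1 was just inside and Calm3 just outside on the higher side, with 1 and 0.9998 on their smaller array, Zfp954 and Rsph3b stood at -1.0005 and -0.9997 on the lower side, and Mks1 and Diap3 differed by 1.0009 and 0.9999 between arrays 7 and 8. A further 885 genes called higher and 1706 called lower did not meet the rule.

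**Figure D2:**
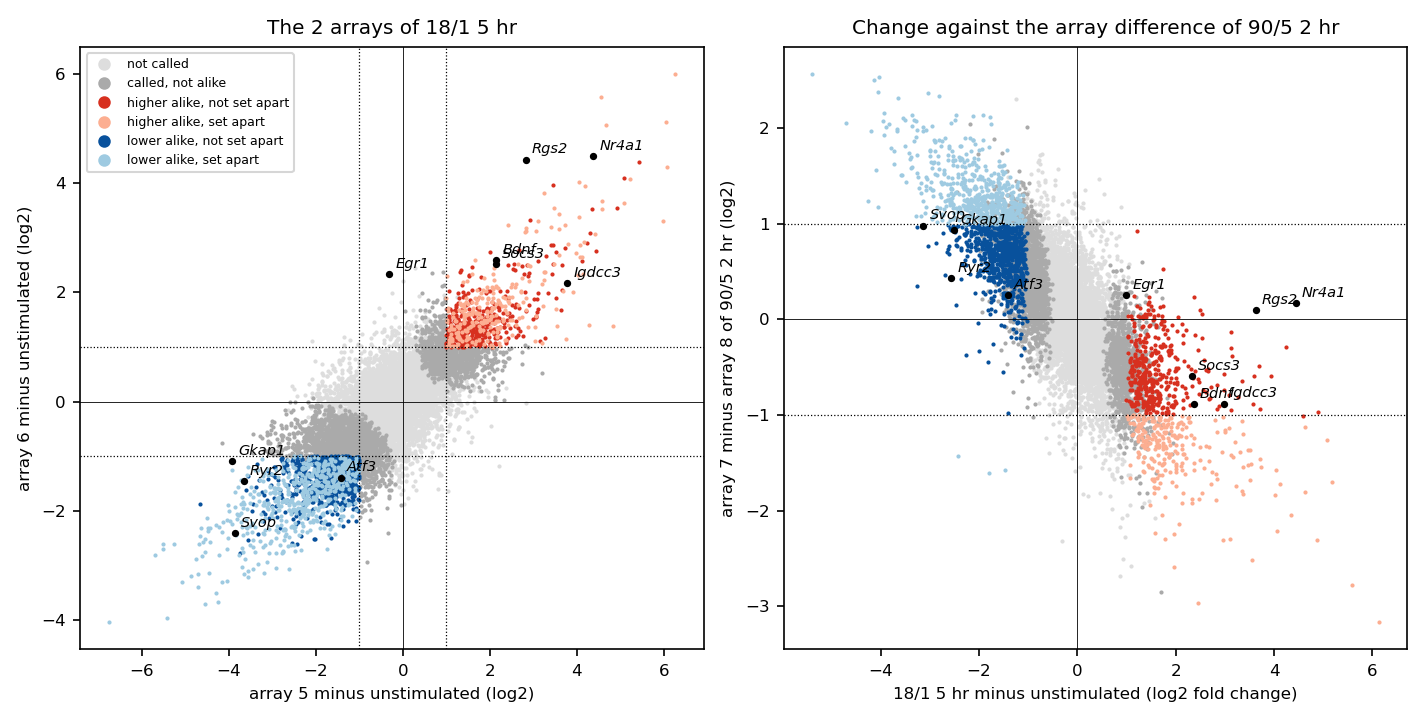
Left, the difference of array 5 and of array 6 from the unstimulated mean (log2) for all 10355 genes; right, the log2 fold change of 18/1 5 hr against the difference between arrays 7 and 8 of 90/5 2 hr. Colours give the classes and dotted lines the limits of 1, and the genes that fell lie mostly above 0 on the right and those that rose below it, with a correlation of -0.78 over 10355 genes.

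The difference between arrays 7 and 8 ran along the change at 18/1 5 hr in nearly all of these genes. All 258 genes set apart on the higher side were higher on array 8 than on array 7, and 553 of the 556 on the lower side were lower on array 8. Among the genes not set apart, the same held for 373 of 406 and 765 of 788, and the difference reached 0.5 log2 units in 247 and 591 of them. Only 75 and 63 of them had arrays 7 and 8 within 0.25. Across the 10355 genes, which are not independent and share a slide, the difference between arrays 7 and 8 correlated with the log2 fold change at r = -0.78, against -0.06 for the unstimulated arrays and 0.43 for arrays 5 and 6. The change also ran with the base composition of the probes. Probes with 16.7% to 35% G and C had a median log2 fold change of 0.36 and those with 51.7% to 55% one of -0.98 (r = -0.43). The 406 genes higher alike had probes with a median of 35% and the 788 lower alike of 45%. Of the former, 182 were saturated in at least 1 sample at 18/1 5 hr, and of the latter 29. The part of scanning, hybridization or probe composition in these changes was not tested.

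Among genes not set apart that carry a current symbol, were well above background and unsaturated in all 8 samples and had no probe moving the other way (156 that rose and 451 that fell), the 12 largest rises were Nr4a1, Igdcc3, Pot1a, Tuba3a, Gm10778, Bdnf, Gjc1, Socs3, Ankfy1, Maff, Zfp930 and Lrrn4cl. Their log2 fold changes ranged from 2.14 to 4.44. Igdcc3, a cell surface protein of the immunoglobulin superfamily, had levels of 9.63, 10, 9.52 and 9.95 without stimulation and of 13.14, 13.98, 11.54 and 12.36 at 18/1 5 hr (2.98 ± 0.39, limma, adjusted p = 1.1e-05). Pot1a, which protects telomere ends, moved from 10.01, 10.94, 9.82 and 10.68 to 13.42, 14.18, 12.29 and 13.12 (2.89 ± 0.3, adjusted p = 1.1e-06). In both, array 5 was higher than array 6, and both were far above the unstimulated samples. Tuba3a, an alpha tubulin, moved from 8.31, 9.11, 8.49 and 9.03 to 12.02, 12.47, 10.26 and 10.99 (2.7 ± 0.37, adjusted p = 1.8e-05). Gjc1, the gap junction protein connexin 45, moved from 8 to 8.23 to 10.94, 11.37, 9.52 and 9.88 (2.36 ± 0.33, adjusted p = 1.97e-05). Ankfy1, an endosomal protein, was the least even, with 3.26 on array 5 and 1.17 on array 6 (2.21 ± 0.61, adjusted p = 0.00582), and it was not called without array 5 (1.17, adjusted p = 0.103) or without array 2 (2.04, adjusted p = 0.0613).

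Of these 12 genes, Nr4a1, Bdnf, Socs3 and Maff were 0.81 to 4.54 above unstimulated neurons at 18/1 2 hr and 0.89 to 5.51 at 90/5 5 hr. The other 8 lay between -0.06 (Igdcc3) and 0.5 (Ankfy1) at 18/1 2 hr and between -0.94 (Pot1a) and 0.29 (Ankfy1) at 90/5 5 hr, but between 0.29 (Tuba3a) and 2.44 (Igdcc3) at 90/5 2 hr, on the same slide as 18/1 5 hr. All of these differences share the unstimulated samples. Within slide 2, Tuba3a (2.41 ± 0.37, adjusted p = 0.0016), Gjc1 (1.99 ± 0.33, adjusted p = 0.00223) and Bdnf were called higher at 18/1 5 hr than at 90/5 2 hr, where 2.76% of all genes tested were, and these calls too are a description, since the genes were chosen for their rise in the same samples. Tubulin probes can bind closely similar copies, so the value of Tuba3a may hold signal of other alpha tubulins.

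The 12 largest falls were Svop, B4galt3, Luc7l, Kctd5, Gm11937, Vps25, Ryr2, Fsd1l, Pelp1, Gkap1, Eepd1 and 4933417G07Rik, with log2 fold changes from -3.13 to -2.45. Svop, a synaptic vesicle protein related to transporters, had levels of 12.76, 12.83, 12.67 and 12.84 without stimulation and of 9.17, 8.66, 10.5 and 10.24 at 18/1 5 hr (-3.13 ± 0.4, limma, adjusted p = 8.24e-06). The unstimulated samples were nearly equal and the stimulated ones differed by array, with array 5 the lower. Vps25, a subunit of the ESCRT complex that sorts membrane proteins for degradation, moved from 12.3 to 12.4 to 9.45, 9.63, 9.98 and 10.1 (-2.57 ± 0.28, adjusted p = 1.59e-06). Ryr2, a calcium release channel of the endoplasmic reticulum, moved from 11.78, 12.13, 11.63 and 11.37 to 8.09, 8.05, 10.34 and 10.2 (-2.56 ± 0.5, adjusted p = 0.000439). B4galt3 adds galactose to glycoproteins, Luc7l is a splicing factor, Kctd5 an adaptor of cullin ubiquitin ligases and Pelp1 a coregulator of nuclear receptors, and they fell by 2.74, 2.62, 2.61 and 2.51. Gkap1 was the least even, with -3.92 on array 5 and -1.09 on array 6. Of the 12, all except B4galt3 (adjusted p = 0.0805) and Ryr2 (adjusted p = 0.0921) were called lower at 18/1 5 hr than at 90/5 2 hr within slide 2, where 10.2% of all genes tested were. The 12 were chosen for their fall in these same samples, so these calls are a description. They lay between -0.49 (B4galt3) and 0.36 (Gkap1) at 18/1 2 hr and between -0.7 (Ryr2) and 0.5 (Gm11937) at 90/5 5 hr.

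**Figure D3:**
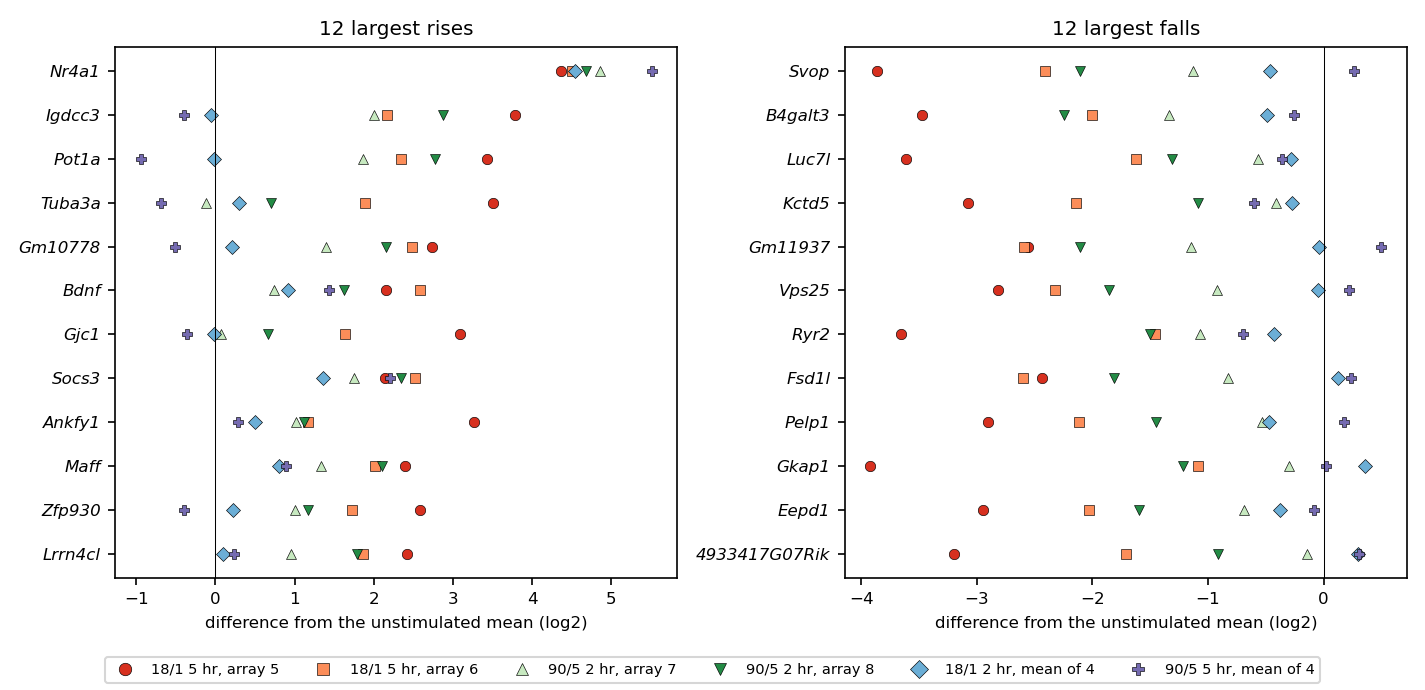
Difference from the unstimulated mean (log2) of the 12 largest rises and falls that were not set apart, by array for 18/1 5 hr and 90/5 2 hr and as the mean of 4 samples for 18/1 2 hr and 90/5 5 hr. Nr4a1, Bdnf, Socs3 and Maff lie right of 0 in every condition, and array 8 of 90/5 2 hr lies farther from 0 than array 7 for all genes drawn except Nr4a1.

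Among the genes set apart, the 3 largest rises under the same conditions were Gcgr (4.05), Zfp937 (3.37) and Nppa (3.11). Gcgr, the glucagon receptor, had levels of 9.41, 9.83, 9.45 and 9.81 without stimulation and of 13.88, 14.53, 12.98 and 13.3 at 18/1 5 hr, and it was 1.57 lower on array 7 than on array 8 of 90/5 2 hr. Nppa, the precursor of atrial natriuretic peptide, split between arrays, with 13.35 and 14.28 on array 5 and 10.22 and 10.5 on array 6 against 8.87 to 9.21 without stimulation (limma, adjusted p = 0.00311). It was not called without array 5 (1.39, adjusted p = 0.119). The falls included Eri3 (-3.48) and Tubb2a-ps2 (-3.37). Eri3, an exonuclease, moved from 12.1 to 12.2 to 7.62, 7.44, 9.86 and 9.84, and it was 1.44 higher on array 7 than on array 8. At 18/1 2 hr, these 5 genes differed from unstimulated neurons by 0.02 (Nppa) to 0.13 (Gcgr).

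The lists and families below are set beside all genes tested, of which 15.0% were called higher and 29.5% lower, and centring arrays on their medians moved the balance of nearly every one of them towards lower calls. Genes of calcium handling, the first step between firing and the nucleus, were called in both directions. Of 37 tested, 7 were called higher (18.9%, beside 15.0% of all genes) and 11 lower (29.7%, beside 29.5%), with a median of -0.19, but 2 were higher and 17 lower with a median of -0.82 under median centring. Slc8a3, a sodium-calcium exchanger that pumps calcium out, had levels of 11.84, 12.24, 12 and 12.21 without stimulation and of 10.18, 10.45, 9.69 and 9.95 at 18/1 5 hr, with groups that did not overlap (-2 ± 0.24, limma, adjusted p = 3.73e-06). Its 90/5 2 hr samples stood 1.91 below the unstimulated ones, and the arrays of 90/5 2 hr differed by -0.33. Camk1, a calcium-dependent kinase, moved from 10.36 to 10.88 to 9.1 to 9.51 (-1.24 ± 0.27, adjusted p = 0.00094) and differed from 90/5 2 hr by -1.12, a value given as a description, since the gene was named for its fall in the same samples. Mef2a, a transcription factor that responds to calcium, rose by 2.24 ± 0.3 (adjusted p = 1.33e-05), but its other probe did not move the same way. Ppp3cb, a catalytic subunit of the calcium-dependent phosphatase calcineurin, rose by 1.69 ± 0.31 (adjusted p = 0.000251, 2 samples saturated), so the size of the rise is uncertain.

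Ion channels are set beside the 15.0% of all genes called higher and the 29.5% called lower. Among 11 sodium channel genes tested, 1 was called higher (9.09%) and 2 lower (18.2%). Scn8a, the sodium channel of nodes and initial segments, had levels of 10.77, 11.66, 10.65 and 11.25 without stimulation and of 14.73, 14.74, 13.08 and 14.08 at 18/1 5 hr, 1 of them saturated (3.08 ± 0.36, limma, adjusted p = 2.98e-06). It was 2.83 above unstimulated neurons at 90/5 2 hr and -0.09 from them at 18/1 2 hr. Of 34 potassium and HCN channels, 3 were called higher (8.82%) and 7 lower (20.6%), and under median centring 1 and 12. Kcna4, an A-type potassium channel, rose by 1.75 ± 0.27 (adjusted p = 5.49e-05) and Kcnd1, another of that type, fell by 1.51 ± 0.27 (adjusted p = 0.000185). Of 10 calcium channel genes, 2 were called (20%), both lower and both auxiliary beta subunits. Cacnb3 fell by 1.44 ± 0.3 (adjusted p = 0.000686), and Cacnb1 was not well above background in any sample at 18/1 5 hr.

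Genes of synaptic vesicles and their release showed 4 of 36 members called higher (11.1%, beside 15.0% of all genes) and 13 lower (36.1%, beside 29.5%), with a median of -0.41 that was -0.87 under median centring and -0.2 without the trend on probe composition. Bassoon (Bsn), a scaffold of the release site, moved from 11.79 to 12.2 to 10.31 to 10.53 (-1.5 ± 0.37, limma, adjusted p = 0.00265), and the vesicle protein Syngr1 from 12.69 to 12.91 to 11.31 to 11.85 (-1.25 ± 0.3, adjusted p = 0.00209). Slc17a8, the vesicular glutamate transporter VGLUT3, fell by 2.39 ± 0.46 (adjusted p = 0.000367) and was set apart, with 1.81 between arrays 7 and 8, and it was well above background in 3 of 4 samples at 18/1 5 hr. A spot of Slc17a8 other than those behind this value was turned on at 18/1 5 hr by the rule described last. In the other direction, Nsf, the ATPase that takes apart SNARE complexes, and Cplx2, which clamps them, were saturated in all 4 samples at 18/1 5 hr, so their rises have only a lower bound, at least 3.76-fold and at least 4.05-fold (adjusted p = 0.00143 and 0.000834).

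Receptors of neurotrophins were among the genes called lower, as were 29.5% of all genes tested. Ntrk2, the receptor of Bdnf, moved from 9.12 to 9.39 to 7, 6.83, 8.17 and 8.07 (-1.75 ± 0.36, limma, adjusted p = 0.000605) but was well above background in only 2 of these 4 samples, so the size of the fall is uncertain. A spot of Ntrk2 other than those behind this value was turned on at 18/1 5 hr by the rule described last, as were spots of 6186 genes. Ntrk3, the receptor of neurotrophin 3, moved from 11.92 to 12.48 to 9.93, 9.52, 10.82 and 10.6 (-1.96 ± 0.39, adjusted p = 0.000468), and 1 of its 2 other probes moved the same way. In both genes the groups did not overlap. Ntrk3 was set apart, with 1.08 between arrays 7 and 8, and Ntrk2 was just under the limit with 0.99. As a description, Ntrk2 differed from 90/5 2 hr by -1.15. Among the 23 sensory neuron markers tested, 1 was called higher (4.35%, beside 15.0% of all genes), Tac1, and it was set apart. Another 3 were called lower (13%, beside 29.5% of all genes), 2 of them set apart, with a median of 0.03 over the list. With median centring, 12 of the 23 were called lower and the median was -0.94.

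Kinases and adaptors downstream of firing were called in both directions. Of 38 members of the MAP kinase cascade, 1 was called higher and 11 lower (28.9%, beside 29.5% of all genes), with a median of -0.31. Map3k11 and Map2k7, which act upstream of the kinase JNK, moved from 9.02 to 9.39 to 7.12 to 7.67 (-1.73 ± 0.31, limma, adjusted p = 0.00018) and from 8.59 to 8.91 to 6.86 to 7.4 (-1.58 ± 0.24, adjusted p = 5.2e-05). As a description, they differed from 90/5 2 hr by -1.26 and -1.23. Araf, a Raf kinase, rose by 1.16 ± 0.28 (adjusted p = 0.00223). Of 23 cytokine and STAT genes, 3 were called higher (13%) and 7 lower (30.4%). Stat3 moved from 13.94 to 14.25 to 12.24 to 12.55 (-1.69 ± 0.37, adjusted p = 0.00112), opposite to its inhibitor Socs3, and Stat6 fell by 1.18 ± 0.28 (adjusted p = 0.00221). Stat3 was at the same distance from unstimulated neurons at 90/5 2 hr (-1.62) and near them at 18/1 2 hr (-0.39). Of 31 genes of NF-kappaB and death receptor signalling, 6 were called in each direction (19.4%), but 1 higher and 10 lower under median centring, with the first count including the inhibitor Nfkbib (-1.78, adjusted p = 1.71e-05) and the death receptor Tnfrsf10b (1.11, adjusted p = 0.00156).

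Genes that shape the axon and its cytoskeleton were called in both directions. Of 43 Rac and actin regulators, 10 were called higher (23.3%) and 11 lower (25.6%), with a median of 0.02 that was -0.33 under median centring and -0.06 without the trend on probe composition. Itga3, an integrin subunit that binds laminin, moved from 10.2 to 10.43 to 7.67 to 8.05 (-2.4 ± 0.31, limma, adjusted p = 9.61e-06), and its partner Itgb1 from 12.36 to 12.75 to 10.28 to 11.46 (-1.79 ± 0.37, adjusted p = 0.00068). Among 19 laminins and integrins, the 6 called were lower (31.6%, beside 29.5% of all genes). Vasp, which lengthens actin filaments, moved from 10.07 to 10.49 to 8.08 to 8.87 (-1.89 ± 0.26, adjusted p = 1.81e-05). Wasl, which starts new actin branches, moved from 9.47 to 9.99 to 11.3 to 11.65 (1.68 ± 0.35, adjusted p = 0.000698), but its other probe did not move the same way, and the kinase Pak4 was saturated in all 4 samples, at least 3.2-fold higher. Of 24 axon growth and injury genes, 2 were called higher (8.33%) and 4 lower (16.7%), and under median centring 2 and 11. Chl1, a cell adhesion molecule, and Dpysl5, a collapsin response mediator, rose by 2.04 and 2 (adjusted p = 0.000175 and 0.000349, 2 samples saturated in each). The sizes of these rises are uncertain because of the saturation, and another probe of Chl1 did not move the same way. Marcks, a substrate of protein kinase C at the membrane, fell by 1.86 (adjusted p = 0.00497) and Sox11, a factor of neurite growth, by 1.43 (adjusted p = 0.00256).

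In the nucleus, 12 of 61 chromatin modifying enzymes were called higher (19.7%, beside 15.0% of all genes) and 19 lower (31.1%, beside 29.5%), and under median centring 6 and 26. Hdac11, a histone deacetylase, moved from 10.29 to 10.49 to 7.8 to 8.31 (-2.27 ± 0.26, limma, adjusted p = 2.48e-06), while the histone H3 lysine 9 methyltransferases Ehmt1 and Suv39h2 rose, Suv39h2 by at least 6.39-fold with all 4 samples saturated and Ehmt1 with 3 samples saturated, so that its size is uncertain, and its other probe not moving the same way. Of 27 histone genes, 4 were called higher and 14 lower (51.9%, beside 29.5% of all genes), with a median of -0.67 that was -0.14 once the trend on probe composition was removed. H2afy, the variant macroH2A, rose by 2.4 (adjusted p = 7.99e-06) but its other probe did not, and Hist1h2bm fell by 1.58 (adjusted p = 0.00121). Histone genes of the same class are near copies of each other, so these values are uncertain. Of 176 zinc finger genes named Zfp, 26 were called higher (14.8%) and 55 lower (31.2%).

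Among genes of protein synthesis, cytosolic ribosomal proteins were largely not called, with 4 of 77 higher, 7 lower and a median of -0.1, but under median centring 63 were called lower with a median of -1.81, and without the trend on probe composition the median was 0.07. Mitochondrial ribosomal proteins had 17 of 66 called higher (25.8%, beside 15.0% of all genes) and 13 lower (19.7%, beside 29.5%), a balance that turned to 4 higher and 20 lower under median centring, with a median of 0.15 that was -0.25 there and -0.57 without saturated probes. Of 24 aminoacyl-tRNA synthetases, which load amino acids onto tRNAs, 4 were called higher and 10 lower (41.7%), with a median of -0.69 that was -0.22 once the trend on probe composition was removed. Vars2, Hars and Vars fell by 1.82, 1.78 and 1.41 (limma, adjusted p = 0.000783, 7.5e-05 and 0.000349), with Vars2 well above background in 3 of 4 samples at 18/1 5 hr. Hars was near the unstimulated level in the other conditions, with differences of 0.07 (18/1 2 hr), -0.29 (90/5 2 hr) and 0.3 (90/5 5 hr), and the difference from 90/5 2 hr was -1.49, a description since the same 18/1 5 hr samples chose the gene. Of 78 respiratory chain and ATP synthase genes, 10 were called higher (12.8%) and 9 lower (11.5%), with a median of 0.1, but 1 higher and 46 lower under median centring, with a median of -1.06.

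Stress and growth arrest genes did not move as one. Beside 15.0% of all genes called higher and 29.5% lower, 4 of 28 heat shock chaperones were called higher (14.3%) and 7 lower (25%), and 3 and 18 under median centring. They include Stip1 at -2.01 (limma, adjusted p = 1.18e-05) and Dnajb6 at 1.84 (adjusted p = 4.52e-05), the latter with 1 of its 3 other probes moving the same way. The unfolded protein response had 4 of 21 called higher (19%), among them its transcription factor Xbp1 (1.28, adjusted p = 0.000797, 1 sample saturated), and 5 lower (23.8%), and 2 and 12 under median centring. Of 14 targets of p53 or genes of growth arrest, 4 were called higher (28.6%) and 2 lower (14.3%), and 1 and 2 under median centring, with the cell cycle inhibitor Cdkn1a at -1.47 (adjusted p = 0.000426) and Btg1 at 1.29 (adjusted p = 0.000932). A spot of Cdkn1a other than those behind this value was turned on at 18/1 5 hr by the rule described last. Of 14 cell cycle genes tested, 6 were called higher (42.9%) and 1 lower (7.14%), with a median of 0.53 that was -0.13 under median centring (1 higher and 4 lower) and -0.05 without the trend on probe composition. Cholesterol synthesis had 1 of 27 called higher (3.7%) and 8 lower (29.6%), with the regulator Srebf1 (adjusted p = 8.39e-05) between 8.11 and 8.31 without stimulation and well above background in 1 of 4 samples at 18/1 5 hr, so no fold is given. Of 12 circadian genes, 3 were called higher (25%) and 2 lower (16.7%), and 1 and 3 under median centring. The repressor Cry2 was saturated in all 4 samples at 18/1 5 hr, at least 6.55-fold higher, and was set apart with -1.72 between arrays 7 and 8.

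**Figure D4:**
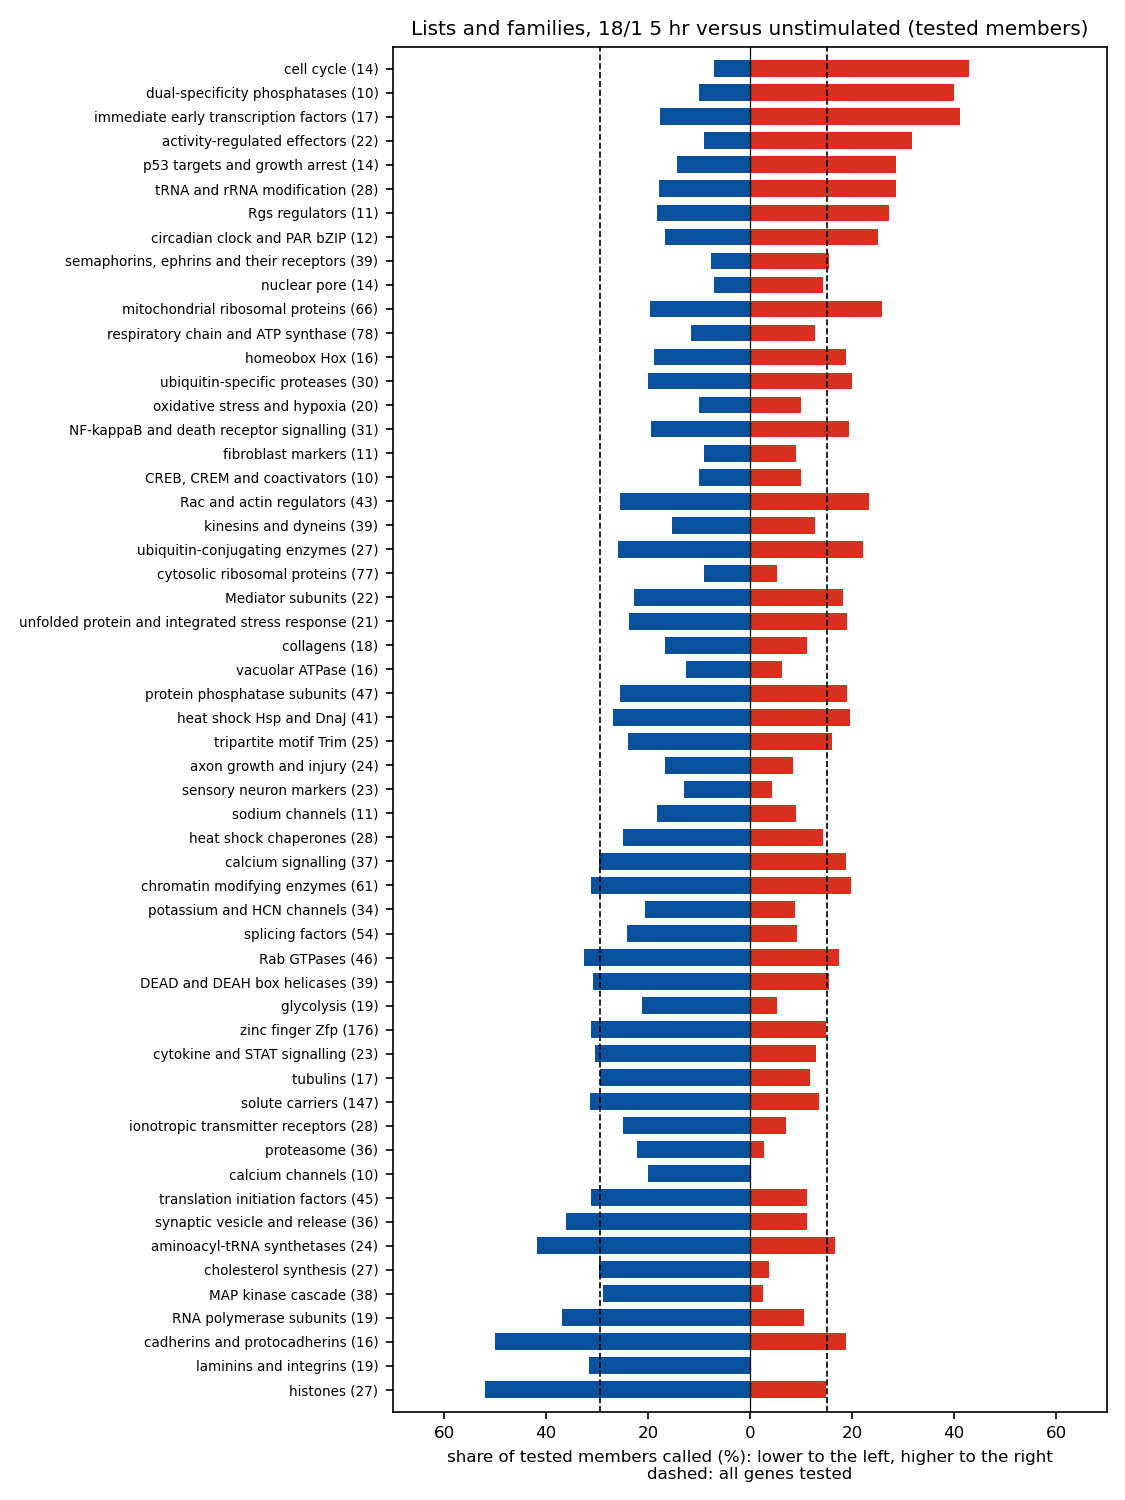
Share of the tested members of each list or family called lower (left, blue) and higher (right, red) at 18/1 5 hr against unstimulated neurons, with the number tested in brackets and lists of at least 10 tested members drawn; dashed lines mark 29.5% and 15.0%, the shares of all genes. Histones reach 51.9% called lower, and immediate early transcription factors 41.2% called higher, a list with 3 members called higher and 6 lower under median centring.

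The study named pathways from these same samples, so their members are not independent evidence of a direction. Beside 15.0% of all genes called higher and 29.5% lower, 2 of 20 members of its CDK5 pathway at 18/1 5 hr were called higher (10%) and 8 lower (40%), and 1 and 5 of these were alike and not set apart. Its Rac pathway had 3 of 18 called higher (16.7%) and 7 lower (38.9%), its death receptor pathway 3 of 19 (15.8%) and 6 (31.6%), its ERK5 pathway 3 of 13 in each direction (23.1%), and the first of the networks it names at this time 4 of 31 (12.9%) and 11 (35.5%). Hdlbp, an RNA-binding protein of that network, fell by 2.26 ± 0.29 (limma, adjusted p = 8.15e-06).

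Within slide 2, the direct comparison of 18/1 5 hr with 90/5 2 hr called 286 genes higher and 1053 lower. Of the 406 genes higher alike and not set apart, 75 were also called higher in it, and of the 788 lower alike 366 were also called lower. Both comparisons use the same 18/1 5 hr samples, and pattern and time differ together in the second. The median of the 406 genes was 1.63 on array 5, 1.37 on array 6, 0.67 on array 7 and 1.23 on array 8 above the unstimulated mean, and the median of the 788 was -1.62, -1.34, -0.33 and -1.02. On the other slides, the medians were 0.1 and -0.1 at 18/1 2 hr and -0.08 and -0.03 at 90/5 5 hr. Where such a gene had other probes that passed, all moved the same way in 32 of 75 genes that rose and 71 of 83 that fell, beside 852 of 1564 among all genes tested.

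By the study's rule, a spot is turned on when it is under 2 times its background in all 4 unstimulated samples and at least 2 times in all 4 samples of a condition. At 18/1 5 hr, 6186 gene names had such a spot and 19 had one turned off, against 37 and 0 at 18/1 2 hr, 1971 and 3 at 90/5 2 hr and 817 and 1 at 90/5 5 hr. The signal over background of the median spot ranged from 5.55 to 10.4 at 18/1 5 hr and from 2.27 to 2.94 at 18/1 2 hr. It ranged from 3.64 to 6.71 at 90/5 2 hr and from 2.66 to 4.91 at 90/5 5 hr. Neighbouring ranges overlapped, and array 7 of 90/5 2 hr lay below array 9 of 90/5 5 hr. In all 4 stimulated conditions, 17 genes had a spot turned on, a set chosen after the values were seen. It holds the immediate early genes Fos and Nr4a2, the regulators Rgs2, Gem and Dusp4, the prostaglandin synthase Ptgs2, the chemokine Cxcl1, the tyrosine phosphatase Ptpn5, the vascular early response gene Apold1, C2cd4a and C2cd4b. The others are Gsdmd, Tprg, 1500015A07Rik, 8430408G22Rik, AK163669 and G630025P09Rik. For C2cd4b the spot was at most 1.94 times its background without stimulation, but 17 to 32.8 times after 5 hr of short bursts, with 8.49 to 23.7 after 2 hr. A spot turned on by this rule need not differ after normalization. Among genes with 1 probe on the arrays, the log2 fold changes in the fits were 0.05 for Ptgs2, -0.26 for 8430408G22Rik, -0.56 for Gsdmd and 3.88 for Fos. Genes with more than 1 probe had 0.03 (Ptpn5), -0.06 (C2cd4a), 0.96 (Gem), 2.2 (Nr4a2), 2.47 (C2cd4b) and 3.63 (Rgs2). Their fitted probe can differ from the spot turned on. For Ptpn5, Gem and Rgs2 it did, so their values do not describe that spot. All of these values are given as a description.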

How the data were processed

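RNA of 20 samples was hybridized to 10 two-colour arrays of 44397 spots. The authors deposited the scanner output of each array, from which the mean and background intensity of each colour were used. Intensities had been extracted by the authors with Agilent Feature Extraction 10.7.1.1 (slide 1) or 10.7.3.1 (slides 2 and 3), probe coordinates are those of mm9, and 35 further columns per colour were not used. Gene annotation differed between these versions in 8333 spots.

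Intensities were background-corrected (normexp, offset 50) and normalized by loess and Aquantile in limma 3.58.1 (R 4.3.3, data.table package 1.17.8). Spots at least 2 times their local background and not marked non-uniform in all 20 samples were kept (13523 spots, 12137 probes), spots of a probe were averaged and the brightest probe represented each of 10355 genes, of which 8008 carry a current symbol. The limma model held condition and colour, with a random effect of the array (correlation 0.53), over all samples, and a gene was called at a Benjamini-Hochberg adjusted p under 0.05. A fold change of a probe saturated in all 4 samples is a lower bound. Scripts were tested on simulated data. Figures were drawn with matplotlib 3.10.9 (Python 3.11.15, numpy 2.4.6).

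The genes named are the 12 largest rises and falls and the 3 of each among genes set apart, up to 5 called members of a list and 3 of a family, and 8 known activity-regulated genes. Markers, further activity-regulated genes measured with the wider filter and the genes turned on in all stimulated conditions were named after their values were seen. Some items that these rules name are not reported here. The comparison, members and lists were chosen with earlier results of these data known. Alternatives covered background, normalization, spot filter, probes, model, probe composition, fold limits, left-out samples and arrays, and the methods' t-test.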

Additional observations from a re-analysis of the deposited data

Results flagged for a closer look

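Several activity-regulated genes differed between 18/1 5 hr and another stimulated condition by a limma contrast of the same fit, all across slides. Bdnf was higher at 18/1 5 hr than at 18/1 2 hr by 1.45 ± 0.3 (SE, adjusted p = 0.000722) and than at 90/5 5 hr by 0.94 ± 0.3 (adjusted p = 0.0141), with 12.52 to 13.3 in its 4 samples. Socs3 was higher than at 18/1 2 hr by 0.97 ± 0.34 (adjusted p = 0.0261). Nr4a1 differed from 90/5 5 hr by -1.07 ± 0.37 (adjusted p = 0.0242) and Gadd45b by -0.79 ± 0.25 (adjusted p = 0.0122). Egr1 differed from 18/1 2 hr by -1.71 ± 0.59 (adjusted p = 0.0227) and from 90/5 5 hr by -2.18 ± 0.59 (adjusted p = 0.00488), differences that array 5 carries.

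The largest rises and falls were chosen by their change in these same 18/1 5 hr samples, so their calls here are a description. Of all 10355 genes, 1585 were called higher and 2971 lower against 18/1 2 hr, and 1636 and 3065 against 90/5 5 hr. Of the 12 largest rises, 11 were called against 18/1 2 hr, with all 12 between -0.1 and 3.04, and 11 against 90/5 5 hr, 10 of them higher and Nr4a1 lower, with all 12 between -1.07 and 3.83. Of the 12 largest falls, 12 were called against 18/1 2 hr (-2.86 to -2.04) and 12 against 90/5 5 hr (-3.39 to -1.85). Slide and condition cannot be told apart in these contrasts.

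In 4 of 70 groups of 4 samples, 1 sample stood far from the other 3, where chance gives about 1 in 20. Gjc1 was at 8.23 in unstimulated replicate 3 and at 8 to 8.03 in the others. In unstimulated replicate 1, Ankfy1 was at 8.85 (others 8.03 to 8.09), Eepd1 at 11.13 (10.77 to 10.82) and Rgs2 at 10.04 (10.28 to 10.29).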

How the results depend on the processing

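The number of arrays, the saturation at 18/1 5 hr and the slide limit these results. No paired analysis was possible because the 18/1 5 hr samples carry no replicate number by colour. The scanner's processed signals were not run as an alternative. Centring arrays on their medians moved the median of all genes from -0.23 to -0.81 and the share of higher genes among those called from 33.7% to 8.73%, against 50.3% without a spot filter, 29.1% without the trend on probe composition and 25% without saturated probes. With median centring, 475 genes were called higher and 4968 lower, 186 and 3107 were alike, and 119 and 1190 set apart. On the higher side, called, alike and set-apart genes numbered 2347, 1102 and 464 with the wider filter, 3901, 1563 and 633 with no filter, and 969, 391 and 162 without saturated probes. Without the trend on probe composition, 396 were higher alike and 159 set apart. A limit of 1.4-fold on each array gave 1410 and 2673 genes alike, and 4-fold gave 99 and 177, with 60 and 150 set apart. A limit of 1.5-fold between arrays 7 and 8 set 453 and 1074 apart, and 4-fold 15 and 27. Leaving out samples or arrays gave 777 (without array 1) to 1766 (without array 6) genes called higher and 1795 to 3896 lower, 585 to 1223 higher alike and 1284 to 2885 lower alike, and 221 to 320 and 538 to 703 set apart. Without array 2, 823 were called higher and 1883 lower. With no array block, 2222 and 3905 were called. The methods' t-test gave 1640 and 3410 genes, and 1106 and 2918 after Benjamini-Hochberg. Leaving array 7 or array 8 out of the fit, a choice made after seeing the data, gave 1879 and 1891 genes called higher. Of 987 values of 35 named genes over 30 settings, 964 kept their direction and side of the threshold and 21 kept their direction but were not called. Egr1 turned to -0.32 without array 6 and was called without array 5 (2.33). Gadd45b was 0.41 with median centring (adjusted p = 0.295), and Igdcc3, Tuba3a, Gjc1, Ankfy1, Nppa and Rgs2 missed the threshold of the methods' t-test, as did these and Pot1a, Zfp930, Gcgr and Zfp937 after Benjamini-Hochberg (adjusted p of 0.0669 to 0.254). The cause of these changes was not tested.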

Other observations

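Of some gene families only a few members passed the filter. Of 7 keratins and keratin-associated proteins tested, 5 were called lower, with a median log2 fold change of -1.15, and of 6 olfactory receptors 5 were called lower and 1 higher, with a median of -1.1, beside 29.5% of all genes called lower and a median of -0.23. Of 3 crystallins 1 was called lower, and the 1 vomeronasal receptor tested was not called. With the trend on probe composition removed, these medians were -0.57 and -0.6. Of 16 cadherins and protocadherins, 3 were called higher and 8 lower, with a median of -0.67. Among 39 semaphorins, ephrins and their receptors, which guide axons, 6 were called higher (15.4%, beside 15.0% of all genes) and 3 lower (7.69%, beside 29.5%), with a median of 0.18 that was -0.5 under median centring (3 higher and 14 lower). Among 46 Rab GTPases, which direct vesicle traffic, 8 were called higher (17.4%) and 15 lower (32.6%), and under median centring 2 and 20.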
